A study of Mus musculus with 6 samples.

Results

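The 10 genes described here serve the copying and reading of the mitochondrial genome: Tfam, Polrmt, Tfb1m, Tfb2m, Polg, Polg2, Ssbp1, Mgme1, Lrpprc and Slirp. They were chosen by name, and all 10 were found by symbol among the 11768 genes of the deposited table, so none was lost to a filter on low values. Transcripts were measured by sequencing of ribosome-depleted total RNA from frozen quadriceps, a mixed thigh muscle, of mice on normal chow. The libraries labelled mDrp1HET came from mice carrying a heterozygous muscle-specific deletion of the gene for Drp1 (Dnm1l), the GTPase that divides mitochondria, and the libraries labelled Control from mice with the floxed gene (Control f/f). Each label was given to 3 columns of the table. The sample titles carry the letters mck, the usual abbreviation of muscle creatine kinase, whose promoter is widely used to drive Cre in muscle, but they do not say that it drove this deletion. The age and sex of the mice are not given in the sources used here.

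Mitochondria keep a small circular genome that encodes core subunits of the respiratory chain, and every protein that copies or transcribes it is made from nuclear genes. The polymerase Polrmt starts transcription together with Tfam, which bends and packages mitochondrial DNA, and Tfb2m, which opens the promoter. The replicative polymerase Polg works with its accessory subunit Polg2, and Ssbp1 coats the exposed single strand. Lrpprc and Slirp form a complex that stabilises mitochondrial messenger RNAs. In humans, inherited defects in several of these genes, the polymerase gene among them, cause mitochondrial disease that often affects muscle. Transcripts of the mitochondrial genome itself were not analysed here, since 0 of its 13 protein-coding genes were found in the table under the names searched.

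The columns of mDrp1HET replicate 3 and Control replicate 1 turned out to be a single library. In 11334 genes the read numbers of these columns stood in a ratio of exactly 2, with Control replicate 1 the larger, and any other pair of columns had this ratio in at most 81 genes. This shared library was counted once and given to neither group, and the 4-library comparison set mDrp1HET replicates 1 and 2 against Control replicates 2 and 3. The comparison of all 6 columns as labelled is given beside it. That comparison holds the shared library in both groups, which draws each difference toward 0 and leaves its sign as it was. Its SEs and p-values treat these columns as separate libraries, so it is no independent check. Recovered reads numbered 15782298 and 10394761 in the mDrp1HET libraries and 28664508 and 25019293 in the Control libraries, so that depth and group cannot be told apart. Dnm1l, the targeted gene, had 7.30 and 6.73 log2 CPM (its share of the library's reads, as deposited on the log2 scale) in the libraries labelled mDrp1HET, 6.95 and 6.87 in those labelled Control and 6.69 in the shared library. Its 4-library log2 fold change was 0.11 (SE 0.23), and 0.072 as labelled. Which exons are deleted is not given in the sources used here, so reads from the remaining exons check the labels only in part, and each direction given here is one between labels. The muscle fibre genes of the marker list were all listed (11 of 11) and summed to at least 17.83 log2 CPM in each separate library.

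The sequences just before the transcript starts of Slirp, Polg2, Polg and Tfam are shown first. The groups of the 4-library comparison did not overlap for Slirp, Polg2 and Polg, and Tfam is the central packaging and initiation factor. They are the 150 bases upstream of each start, 5′ to 3′ on the gene's strand, from RefSeq on build GRCm38.p6, and capitals mark CCGGAAG or its reverse complement CTTCCGG, the core bound by GABP and other ETS factors. For Polg and Tfam the start used by RefSeq here lies inside the outer bounds of the gene given below. They lie at chr12:87443746-87443895 (plus strand) for Slirp, chr11:106779538-106779687 (minus) for Polg2, chr7:79466274-79466423 (minus) for Polg and chr10:71238045-71238194 (minus) for Tfam.
Slirp: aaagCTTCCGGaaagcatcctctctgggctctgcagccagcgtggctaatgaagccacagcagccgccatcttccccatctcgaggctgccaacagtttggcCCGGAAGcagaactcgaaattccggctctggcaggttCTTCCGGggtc
Polg2: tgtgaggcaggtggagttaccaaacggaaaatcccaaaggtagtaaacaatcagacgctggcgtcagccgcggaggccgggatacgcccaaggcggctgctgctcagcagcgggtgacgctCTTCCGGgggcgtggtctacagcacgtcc
Polg: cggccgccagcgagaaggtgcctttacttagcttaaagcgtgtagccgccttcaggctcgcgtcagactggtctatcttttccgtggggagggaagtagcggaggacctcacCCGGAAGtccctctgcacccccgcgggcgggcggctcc
Tfam: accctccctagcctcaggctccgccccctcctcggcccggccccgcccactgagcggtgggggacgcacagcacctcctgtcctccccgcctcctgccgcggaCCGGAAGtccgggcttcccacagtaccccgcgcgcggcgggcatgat

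Exact matches to 4 short motifs were sought on both strands of the 250 bases before each start in all 10 genes. The ETS core CCGGAAG was found in 6 of the 10 genes (60%), against 13.3% of the 11724 windows of listed genes. Slirp held 3 copies, and Polg, Polg2, Polrmt, Ssbp1 and Tfam held 1 each. In these 6 genes a copy lay between 48 and 23 bases before the start. The core repeat of the NRF1 site, TGCGCA, which reads the same on both strands, was found in Polrmt and Tfb2m, against 11.2% of windows. The YY1 core AAGATGGC was found in Mgme1 and Slirp, against 1.95% of windows, and the Sp1 box GGGCGG in 6 genes (60%), close to the 57.0% of all windows. The 2 Sp1 matches of Polg overlap each other. These are matches of letters in an annotated window and were not tested as binding sites, and the shares were not tested against each other.

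**Figure D1:**
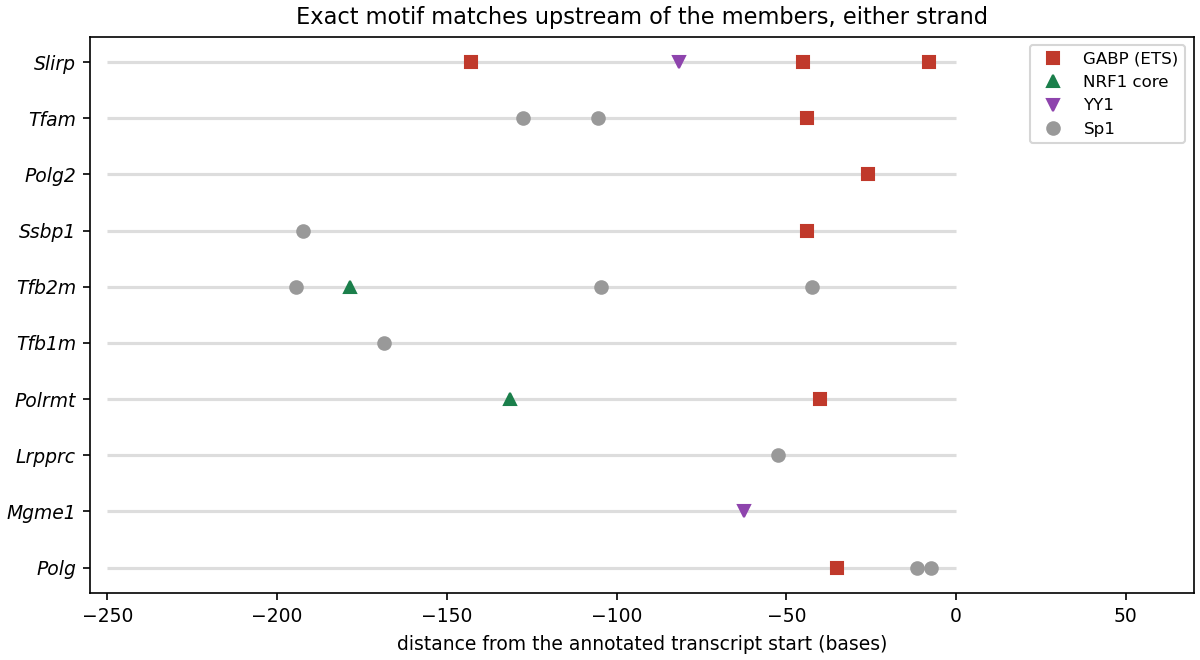
Exact motif matches (symbols) against distance in bases from the annotated transcript start for the 10 genes, ordered by 4-library fold change with the highest at the top. The ETS core (squares) stands close before the start in 6 genes that include both Slirp, at the top, and Polg, at the bottom.

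None of the 10 genes passed the threshold of an adjusted p under 0.05 in limma (Benjamini-Hochberg over all 11768 genes) in the 4-library comparison, where 0.187% of all genes did, 0.144% higher and 0.0425% lower in mDrp1HET. The largest difference was that of Slirp, at 1.98-fold over Control with an adjusted p of 0.191. Polg, at a log2 fold change of -0.51, had an adjusted p of 0.319, and the intervals of Polg and of the other 8 genes held 0. Slirp was the single member of 10 with an unadjusted limma p under 0.05, against 16.6% of all genes, 13.3% higher and 3.26% lower. As labelled, 0 of 10 passed and 0 had an unadjusted p under 0.05. Among all genes 0% passed as labelled, and 3.9% had such an unadjusted p, 3.04% higher and 0.858% lower. The lowest adjusted p of the 10 was then 0.753. With limma voom on recovered reads 0 of the 10 passed in either comparison. In bulk muscle, fewer cells of a type and less RNA per cell cannot be told apart.

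The members were spread to both sides of 0. In the 4-library comparison 5 of 10 log2 fold changes were above 0, against 69.6% of all genes, and their median was 0.044 against 0.20 for all genes. Relative to that median of all genes, Slirp stood 0.78 above and Polg 0.71 below, and 4 of the 10 members were above it. As labelled the medians were 0.030 for members and 0.13 for all genes. The sign of the members' median turned with median centring, to -0.12 in the 4-library comparison. The groups did not overlap for 3 of the 10 genes, against 49.9% of all genes. Slirp and Polg2 were in the higher direction (38.6% of all genes) and Polg in the lower direction (11.3%). With 2 members higher and 1 lower of 10, neither direction exceeded its share among all genes. Values in the shared library were closer to the mDrp1HET mean for Tfb1m and Mgme1 and closer to the Control mean for the other 8 members.

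**Figure D2:**
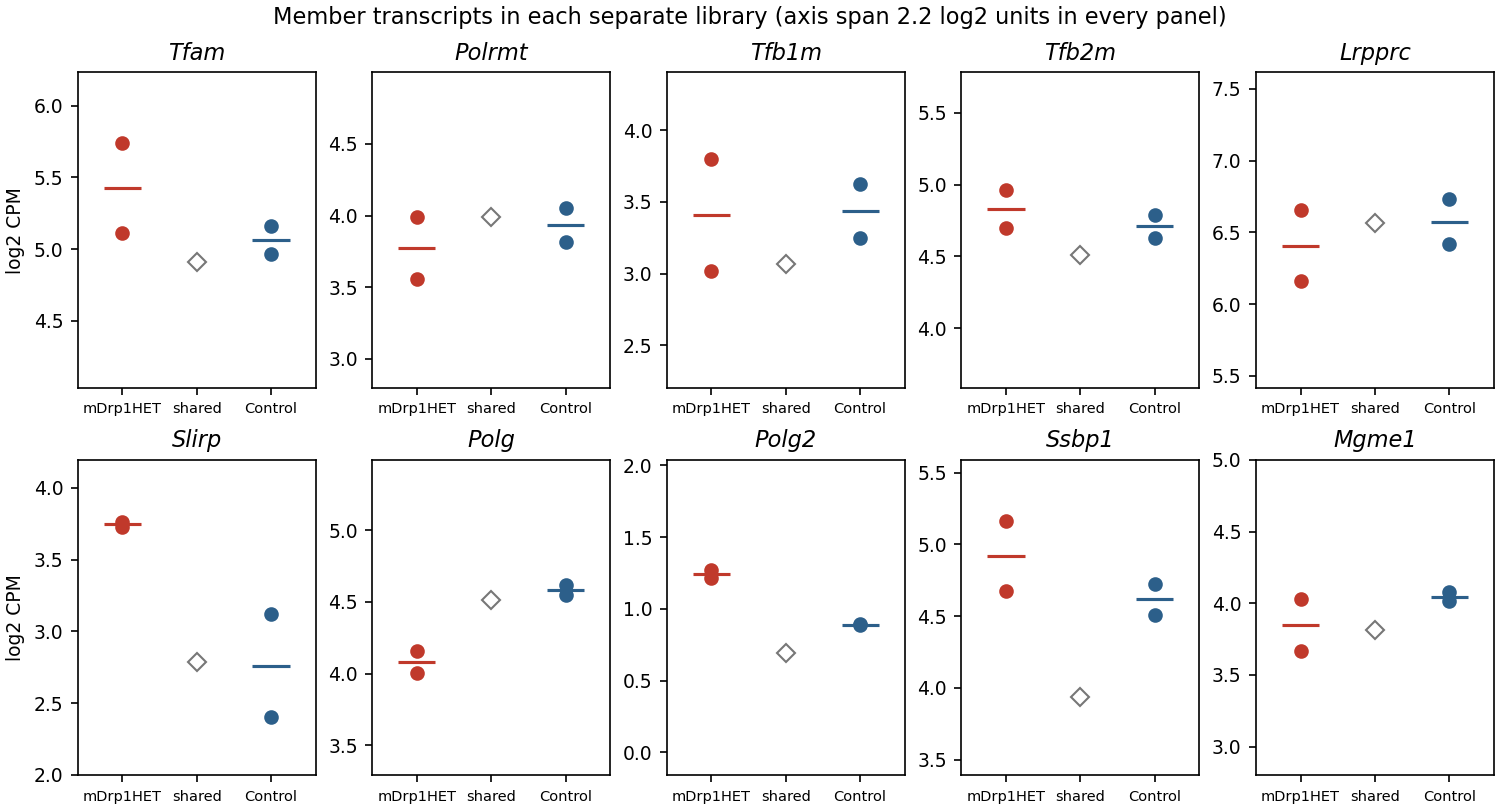
Log2 CPM of each member in the 2 mDrp1HET libraries (red, left), the shared library (open diamond, middle) and the 2 Control libraries (blue, right), with a line at each group mean and the same span on every axis. The groups are apart for Slirp and Polg2 (mDrp1HET above) and for Polg (mDrp1HET below) and overlap for the other 7 genes.

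The transcription machinery was the first group of members. Tfam (chromosome 10, 71225468 to 71238328, RefSeq GRCm38.p6) had 5.74 and 5.11 log2 CPM in mDrp1HET libraries, 5.16 and 4.97 in Control libraries and 4.91 in the shared library. The value of mDrp1HET replicate 1 stood above the rest, while that of replicate 2 lay between the Control libraries. With a 95% interval of -0.20 to 0.92, the log2 fold change was 0.36 (SE 0.26), and its adjusted p in limma was 0.499. Without mDrp1HET replicate 1 it was 0.046, and without mDrp1HET replicate 2 it was 0.67. As labelled it was 0.24 (SE 0.22).

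Polrmt, the RNA polymerase (chromosome 10, 79736125 to 79746604), was lowest in that same library. It had 3.56 and 3.99 log2 CPM in mDrp1HET libraries, 4.05 and 3.82 in Control libraries and 3.99 in the shared library. Only mDrp1HET replicate 1 was low, and its replicate 2 lay within the Control range. The log2 fold change was -0.16 (SE 0.27, interval -0.75 to 0.44), and it was 0.056 without mDrp1HET replicate 1. The log2 ratio of Tfam to Polrmt, which does not depend on how libraries are scaled, was 2.18 and 1.12 in mDrp1HET libraries, 1.11 and 1.15 in Control libraries and 0.92 in the shared library. The wide ratio thus belonged to mDrp1HET replicate 1 alone among the 5 libraries. The difference in this ratio between the group means was 0.52, and 0.13 with each library's trend with transcript GC content removed.

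Tfb1m and Tfb2m are related proteins: Tfb1m methylates the small mitochondrial ribosomal RNA, while Tfb2m acts at the promoter. Tfb1m (chromosome 17, 3519250 to 3557796) had 3.80 and 3.02 log2 CPM in mDrp1HET libraries, 3.62 and 3.25 in Control libraries and 3.07 in the shared library. The mDrp1HET values lay on both sides of the Control values, and the log2 fold change was -0.031 (SE 0.32, interval -0.74 to 0.67). Tfb2m (chromosome 1, 179528052 to 179546305) had 4.96 and 4.70 log2 CPM in mDrp1HET libraries, 4.79 and 4.63 in Control libraries and 4.51 in the shared library. Its groups overlapped, and the log2 fold change was 0.12 (SE 0.24, interval -0.40 to 0.64), a sign that turned with median centring (-0.046). The log2 ratio of Tfb1m to Tfb2m averaged -1.42 ± 0.37 in mDrp1HET and -1.27 ± 0.15 in Control libraries (SD, n = 2 each), a difference smaller than the spread of the mDrp1HET libraries.

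Slirp and Lrpprc are partners in 1 RNA-binding complex, and their levels relative to each other differed more between the groups than those of the other 3 pairs compared. Slirp (chromosome 12, 87443896 to 87449924) had 3.73 and 3.76 log2 CPM in mDrp1HET libraries, 3.12 and 2.40 in Control libraries and 2.79 in the shared library. Both mDrp1HET values were above every other library, and the Control libraries spread more than the mDrp1HET ones. The means were 3.75 ± 0.02 in mDrp1HET and 2.76 ± 0.51 in Control libraries (SD, n = 2 each). This is a log2 fold change of 0.98 (SE 0.31) with an interval of 0.30 to 1.67. Its p in limma was 0.0087 unadjusted and 0.191 adjusted. As labelled the log2 fold change was 0.66 (SE 0.31), with an adjusted p of 0.753. In the 4-library comparison without Control replicate 2 the log2 fold change was 1.34 and without Control replicate 3 it was 0.63.

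These values rested on few reads. Slirp had 209 and 141 reads in mDrp1HET libraries, with exact 95% Poisson intervals of 182 to 239 and 119 to 166, and 249 and 132 in Control libraries, with intervals of 219 to 282 and 110 to 157. The intervals cover counting error only. In the GENCODE vM21 annotation, 2914 of the 3104 exonic bases of Slirp also lie in exons of Snw1, a splicing factor gene on the opposite strand, and whether strand was used in counting is not given in the sources used here. Snw1 had 6.57 and 6.24 log2 CPM in mDrp1HET libraries and 6.32 and 6.12 in Control libraries, a log2 fold change of 0.18 (SE 0.22). Alkbh1, which overlaps Slirp at 122 exonic bases, had a log2 fold change of 0.67 (SE 0.33). Slirp is therefore an uncertain gene here, and the part of its neighbours in its value was not tested.

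Lrpprc (chromosome 17, 84705247 to 84790786) had the most reads of the members, with 6.65 and 6.16 log2 CPM in mDrp1HET libraries, 6.73 and 6.42 in Control libraries and 6.57 in the shared library. The groups overlapped, with mDrp1HET replicate 2 lowest of all. Its log2 fold change was -0.17 (SE 0.24), between -0.69 and 0.35, and the adjusted p in limma was 0.752. The log2 ratio of Lrpprc to Slirp was 2.93 and 2.39 in mDrp1HET libraries, 3.61 and 4.01 in Control libraries and 3.78 in the shared library. Both mDrp1HET values were below the other 3, by a mean difference of -1.15 from Control. The smallest two-sided exact permutation p with 2 libraries per group is 0.333, and this difference was not tested. How often the ratios of other gene pairs stand apart was not counted. Among single genes the groups did not overlap for 49.9%.

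The replication group was led by Polg, the catalytic subunit of the DNA polymerase (chromosome 7, 79446231 to 79467911). Polg had 4.004 and 4.15 log2 CPM in mDrp1HET libraries, 4.62 and 4.55 in Control libraries and 4.51 in the shared library. Both mDrp1HET values lay below the other 3, and the values within each group were close. The means were 4.08 ± 0.11 in mDrp1HET and 4.58 ± 0.05 in Control libraries (SD, n = 2 each). Their difference of -0.51 had an SE of 0.24 and an interval of -1.03 to 0.022, and its adjusted p in limma was 0.319. As labelled it was -0.34 (SE 0.19). In the authors' deposited table Polg had the lowest p of the 10 members, 0.0945. None was under 0.05, and of all 11768 genes 10 were, the lowest at 0.0476. If all 6 columns entered these p-values, the shared library stood in both groups. That can limit how low they fall in any gene, however far apart the other libraries stand. The lowest p of all genes lay just under 0.05, so the counts under 0.05 say little about differences between the groups. These counts are no independent check. At 921 exonic bases Polg overlaps Fanci on the opposite strand, which was not analysed here. Polg2, Mgme1 and Tfb1m share 132, 206 and 142 exonic bases with Milr1, Snx5 and Tiam2 on the opposite strand, and the other 5 members share none.

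Polg2, the accessory subunit that holds Polg on its template (chromosome 11, 106768204 to 106779537), had the fewest reads of the members. It had 1.27 and 1.21 log2 CPM in mDrp1HET libraries, 0.89 and 0.89 in Control libraries and 0.69 in the shared library. Both mDrp1HET values were above the other 3. The log2 fold change was 0.35 with an SE of 0.40 (interval -0.51 to 1.22) and an adjusted p in limma of 0.68, since limma draws the small spread of these libraries toward that of other low genes. Only 38 and 24 reads stood behind it in mDrp1HET libraries, with exact 95% Poisson intervals of 26.9 to 52.2 and 15.4 to 35.7, against 53 and 46 in the deeper Control libraries. The log2 ratio of Polg to Polg2 was 2.73 and 2.94 in mDrp1HET libraries, 3.73 and 3.66 in Control libraries and 3.82 in the shared library. Polg was lower and Polg2 higher in both mDrp1HET libraries than in the other 3, so their ratio had to be lower there. It restates these values and adds no separate result. The mean difference from Control was -0.86, which was not tested.

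Ssbp1, the single-strand binding protein (chromosome 6, 40471414 to 40481823), had 5.16 and 4.68 log2 CPM in mDrp1HET libraries, 4.73 and 4.51 in Control libraries and 3.94 in the shared library. The shared library was the lowest by a wide margin, 0.68 below the Control mean. The log2 fold change was 0.30 (SE 0.25, interval -0.25 to 0.86). Without mDrp1HET replicate 1 it was 0.060, and without mDrp1HET replicate 2 it was 0.55. Mgme1, the nuclease that trims ends during replication (chromosome 2, 144270904 to 144281227), had 4.03 and 3.67 log2 CPM in mDrp1HET libraries, 4.08 and 4.01 in Control libraries and 3.81 in the shared library. Its log2 fold change was -0.20 (SE 0.26, interval -0.77 to 0.38), and mDrp1HET replicate 1 lay within the Control range. That fold change was -0.38 without mDrp1HET replicate 1 and -0.013 without mDrp1HET replicate 2.

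**Figure D3:**
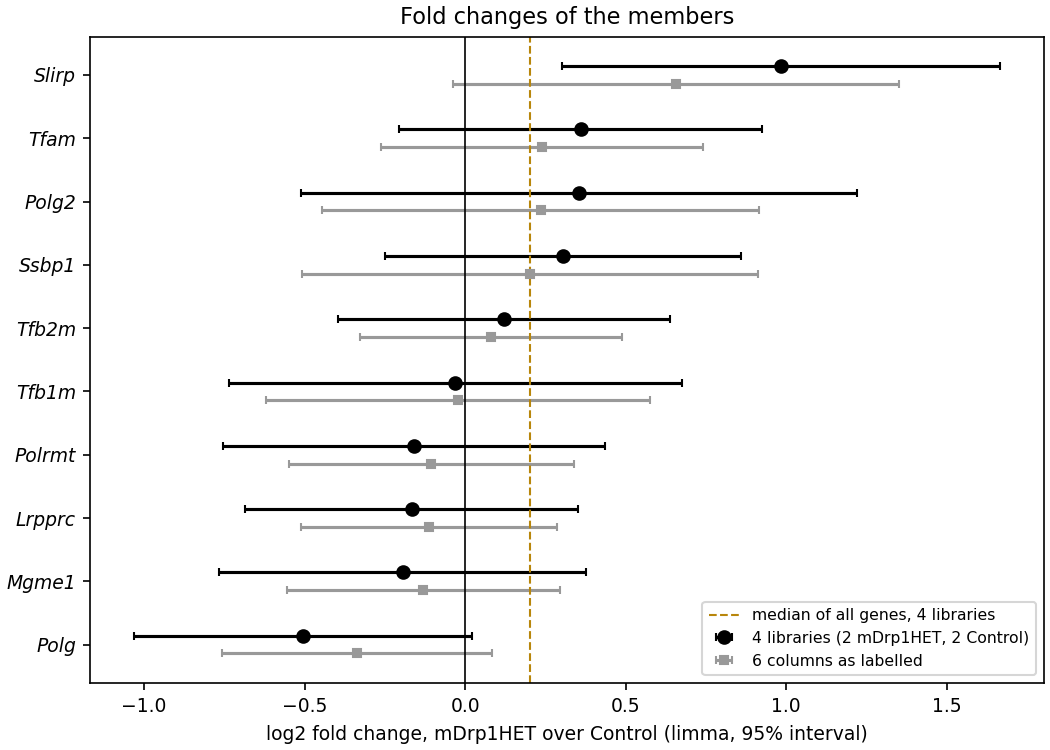
Log2 fold changes of mDrp1HET over Control with 95% limma intervals for the 10 members, from the 4 libraries (black) and from all 6 columns as labelled (grey). The grey values hold the shared library in both groups. The interval of Slirp in the 4-library comparison is the only one that leaves out 0, and the dashed line marks the median of all genes at 0.20.

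How far the same genes moved within a group bears on these values. Between the 2 mDrp1HET libraries the members differed by a median of 0.40 on the log2 scale regardless of sign, against 0.32 for all genes. Between the 2 Control libraries the medians were 0.21 for members and 0.25 for all genes. Tfb1m differed by 0.78 and Tfam by 0.63 between the mDrp1HET libraries, and Slirp by 0.72 between the Control libraries. For every member but Slirp, Polg and Polg2 the gap between the mDrp1HET libraries was wider than the difference between the group means.

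Levels of different genes were compared per kilobase of transcript, over the 5 separate libraries. Lrpprc stood first at a median of 21.6 CPM per kilobase (range 16.3 to 24.2), above the ranges of the other 9 members on that choice of transcript. Next came Tfb2m (10.6), Tfam (8.29), Tfb1m (6.79), Ssbp1 (5.82) and Mgme1 (5.69), in which each range overlapped the next. Polrmt (4.22), Slirp (3.22) and Polg (2.91) also overlapped in sequence, and Polg2 came last at 1.23 (range 1.07 to 1.60), below the ranges of all others. The order depends on the transcript taken. With the shortest transcript of the basic GENCODE set instead of the longest principal transcript, the medians were 44.3 for Tfam, 27.4 for Ssbp1, 10.8 for Slirp and 7.00 for Mgme1, so that Tfam and Ssbp1 stood above Lrpprc, Slirp above Tfb2m and Mgme1 above Tfb1m.

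The 4-library fold changes also moved with base composition. Across 11211 genes the log2 fold change and transcript GC content had a Spearman correlation of -0.39, a description over genes that share the same 4 libraries. Across the 10 members it was -0.49. Genes of 40 to 45% GC had a median log2 fold change of 0.38, and those of 50 to 55% GC one of 0.10. Slirp, at 43.2% GC, was above the median of its range and Polg, at 52.7% GC, below it. With each library's GC trend removed the log2 fold changes were 0.62 for Slirp (limma adjusted p = 0.35) and -0.59 for Polg (adjusted p = 0.277), while Tfam came to 0.050 and Ssbp1 turned to -0.14. Removing the trend also removes differences in the general level of the libraries. With median centring alone, which leaves the GC trend in place, Tfam was at 0.19 and Ssbp1 at 0.14. Slirp was then at 0.82 and Polg at -0.67. The part of GC content in the deposited values was not tested further.

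**Figure D4:**
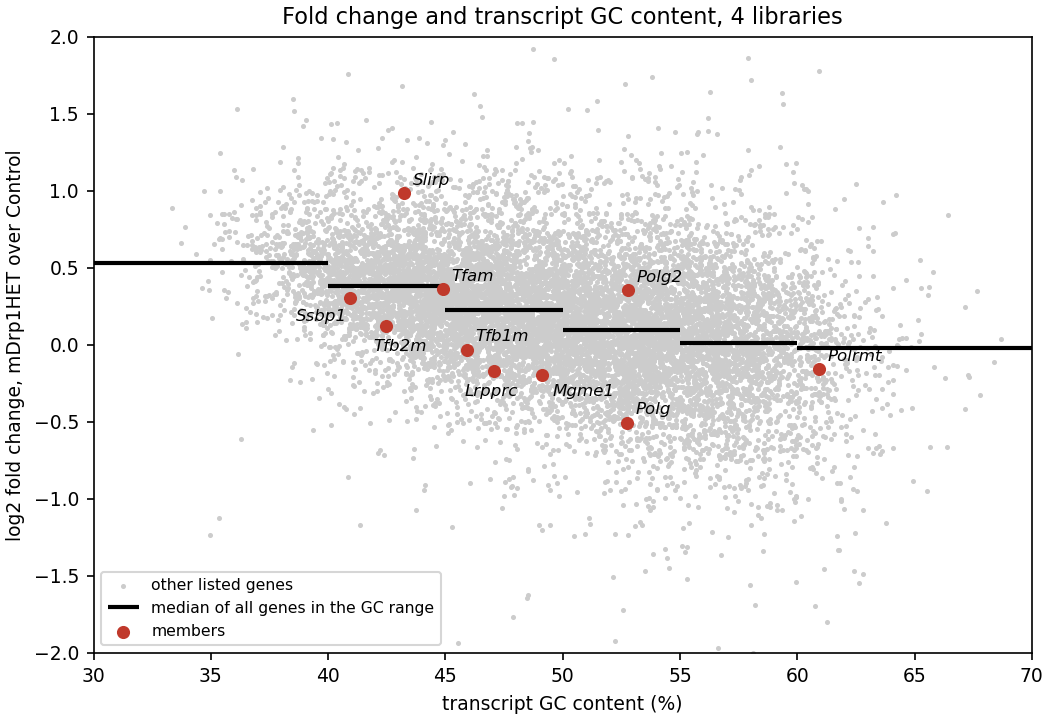
Log2 fold change of mDrp1HET over Control in the 4 libraries against transcript GC content (percent) for 11211 genes (grey), with members in red and black bars at the median of all genes in each GC range. The bars fall with GC content, Slirp stands above and Polg below its bar, and 13 genes lie outside the plotted range.

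Genes that act beside the members were described from lists. Of 8 measured genes for other replication and nucleoid proteins, 0 passed the threshold, and their median log2 fold change was -0.069. Top1mt, the mitochondrial topoisomerase, had 3.80 ± 0.03 log2 CPM in mDrp1HET and 4.33 ± 0.08 in Control libraries (SD, n = 2 each), which differ by -0.53 (SE 0.25) with an adjusted p in limma of 0.314. Primpol, a primase-polymerase, and Fen1, a flap nuclease, had log2 fold changes of 0.66 (SE 0.38) and -0.52 (SE 0.41). The helicase Twnk, which unwinds the template ahead of Polg, stood at -0.24 (SE 0.27).

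Genes that supply nucleotides for mitochondrial DNA had a median log2 fold change of 0.36, and 0 of 9 measured genes passed. At an unadjusted p under 0.05 there were 3, all higher, against 13.3% of all genes in that direction. They were the inner membrane protein Mpv17 (log2 fold change 0.67, SE 0.26, adjusted p in limma 0.249), the nucleotide carrier Slc25a36 (0.54, SE 0.22) and the ribonucleotide reductase subunit Rrm2b (0.52, SE 0.22). Mpv17 averaged 4.91 ± 0.20 log2 CPM in mDrp1HET and 4.25 ± 0.35 in Control libraries, Slc25a36 5.58 ± 0.01 and 5.04 ± 0.19, and Rrm2b 5.76 ± 0.04 and 5.25 ± 0.09, in that order of groups (SD, n = 2 each). The deoxyguanosine kinase gene Dguok lay in the other direction, at -0.45 (SE 0.33).

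Of 6 measured genes for other mitochondrial transcription factors 0 passed, with a median log2 fold change of 0.35. The elongation factor Tefm had one of 0.55 (SE 0.30), and Mterf3 and Mterf4 had 0.48 (SE 0.26) and 0.36 (SE 0.26). For these 3 of the 6 genes the groups did not overlap, all with mDrp1HET higher, against 38.6% of all genes in that direction. Of 19 genes for mitochondrial RNA processing and decay 0 passed, with a median of 0.24. Trmt10c, a subunit of the ribonuclease P of mitochondria, stood at 0.63 (SE 0.29) with an adjusted p in limma of 0.301. Elac2, which cuts the other end of transfer RNAs, stood at -0.49 (SE 0.25), and Pde12, a poly(A) nuclease, at 0.49 (SE 0.26).

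Among 9 regulators that act upstream of the members in the nucleus 0 passed, and the median log2 fold change was 0.19. Ppargc1b, a coactivator of mitochondrial biogenesis, had 2.26 ± 0.49 log2 CPM in mDrp1HET and 3.15 ± 0.25 in Control libraries (SD, n = 2 each), which differ by -0.90 (SE 0.34) with an adjusted p in limma of 0.243. Its value in the shared library was 2.41. Ppargc1a and the GABP subunit gene Gabpb2 had log2 fold changes of 0.30 (SE 0.32) and 0.39 (SE 0.23). Those of Gabpa, whose product binds the ETS core shown above, and of Nrf1 were 0.076 (SE 0.22) and 0.19 (SE 0.24).

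**Figure D5:**
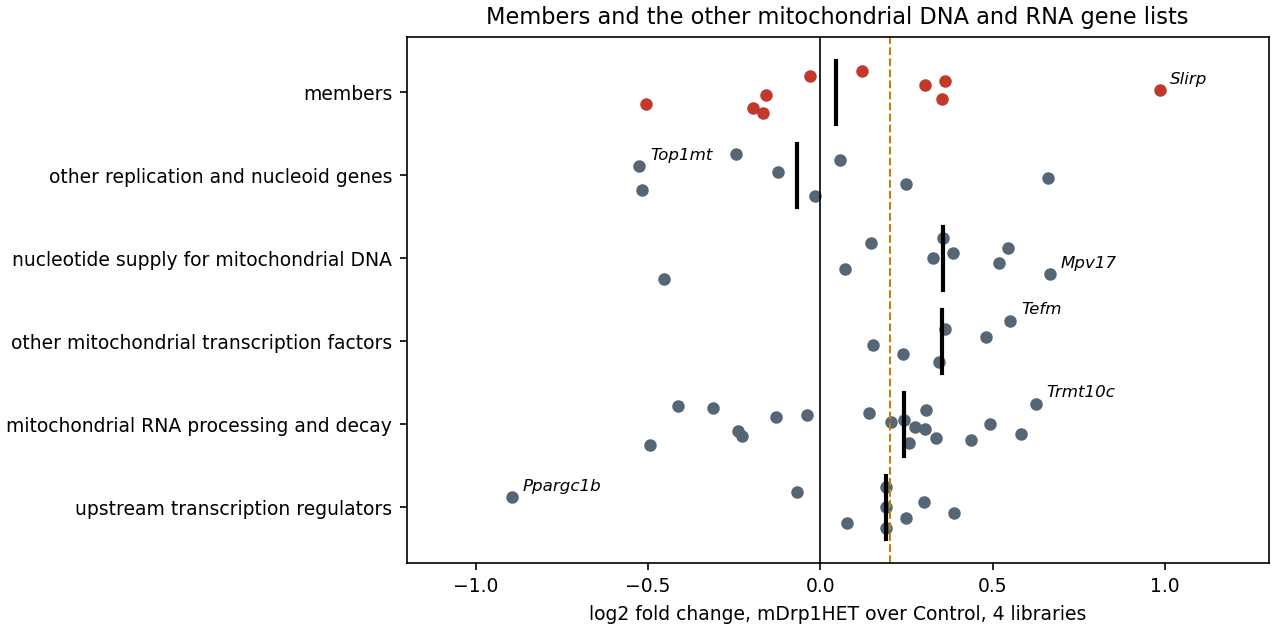
Log2 fold changes of mDrp1HET over Control in the 4 libraries for the members (red) and 5 lists of related genes (grey-blue), 1 point per gene, with a black bar at each list's median, a dashed line at the median of all genes (0.20) and the gene of smallest p named. No point passed the adjusted threshold, and the medians ran from -0.069 for other replication genes to 0.36 for nucleotide supply.

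Summed markers of some other cells of the muscle piece stood apart between the groups. The 7 fibro-adipogenic progenitor markers (7 of 7 listed) summed to 11.14 and 11.14 log2 CPM in mDrp1HET libraries, 10.76 and 10.18 in Control libraries and 10.33 in the shared library, and for 5 of them the groups did not overlap, with mDrp1HET higher. The macrophage markers (6 of 7 listed) summed to 7.61 and 7.54 in mDrp1HET libraries, 7.11 and 6.63 in Control libraries and 7.01 in the shared library, with 5 apart in the same direction. Among all genes 38.6% were apart in that direction. No marker of any list passed the adjusted threshold. The muscle fibre markers summed to 17.91 and 17.83 in mDrp1HET libraries and to 18.01 and 18.20 in Control libraries. That sum hides differences within the list. Myh7 had 7.34 and 2.18 log2 CPM in mDrp1HET libraries, 3.56 and 1.31 in Control libraries and 1.85 in the shared library. Myh1, Myh2 and Myh4 had log2 fold changes of -1.04, -0.996 and -0.89. These were the 3 of 11 lower at an unadjusted limma p under 0.05, against 3.26% of all genes. In the higher direction 1 of 11, Mylpf, had such a p, against 13.3%. The smooth muscle markers (3 of 4 listed) summed to 6.23 and 5.41 in mDrp1HET libraries and to 7.52 and 5.82 in Control libraries, the erythroid ones (3 of 5) to 7.52 and 6.54 against 6.69 and 5.84, and the adipocyte ones to 9.17 and 8.30 against 8.53 and 7.39. The endothelial markers summed to 7.93 and 7.37 in mDrp1HET and 8.13 and 7.53 in Control libraries, and the Schwann cell ones to 5.62 and 5.46 against 5.60 and 4.69. The part of cell makeup in the members' values was not tested.

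Over the 5 separate libraries, the genes whose pattern lay nearest to that of Tfam were Chordc1, a chaperone-binding protein, Zscan29, a zinc finger protein, and Fsd1l. Their centred log2 CPM differed from that of Tfam by a root mean square of 0.017, 0.019 and 0.024. Among the members Tfb2m was nearest, at 0.16, but 13.6% of all genes were nearer. Slirp, Polrmt and Polg were farthest, at 0.39, 0.45 and 0.50.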

How the data were processed

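RNA was made from frozen quadriceps with a stranded total RNA kit after ribosomal depletion and sequenced in 2 pools whose members are not stated, per the labels' protocols. The authors deposited 1 table of log2 CPM values for 11768 genes in 6 columns, with a p-value per gene from the authors, per the file headers. The submitters' processing notes name GRCm38, FastQC and DESeq2 1.30.0. Neither the aligner nor the counter is given in the sources used here. The log2 values gave back whole reads for 100% of values (tolerance 0.01 reads).

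Groups were compared with limma 3.58.1 (R 4.3.3), two-sided, on the log2 values as deposited, with the prior variance following mean intensity and p-values adjusted over all genes by Benjamini-Hochberg. The columns of the shared library entered no group in the 4-library comparison. The members and lists were chosen with earlier results of these data known. The genes named are the members, Dnm1l, up to 3 genes of smallest p per list and the 3 nearest to Tfam. Named outside that rule were Twnk, Dguok, Gabpa, Nrf1, Myh1, Myh2, Myh4, Myh7, Mylpf and the genes that overlap members. Transcript lengths and GC content came from the longest principal transcript of GENCODE vM21 (GRCm38), matched for 95.3% of genes, and promoter windows from RefSeq. Whether the libraries come from separate animals is not in the labels, and the p-values then cover only the spread between libraries, which may be technical. The fit was tested on simulated data with planted changes larger than any member's and no library shared between groups. That test therefore does not cover differences of the members' size or the labelled design. Alternatives were other scalings, added constants, a filter, other variance models, voom, GC correction and leaving out each library.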

Additional observations from a re-analysis of the deposited data

How the results depend on the processing

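No member passed the threshold under any of the 8 other settings or when any library was left out, in either comparison. The number of all genes that passed in the 4-library comparison was 22, against 0 with median centring, with the GC trend removed and without the intensity trend, 1 with quantile normalization and 51 with voom, and between 77 and 325 when 1 library was left out, which leaves an arm of 1 library assumed to vary like the rest. As labelled it was 0, and between 0 and 2 when 1 column was left out. The median of all genes was 0.20, against 0.035 with median centring, 0.013 with quantile normalization and -0.0044 with the GC trend removed. The median of the members, 0.044, was -0.12, -0.13 and -0.21 under these settings and -0.031 with the filter at a mean log2 CPM of 3, and lay between -0.087 and 0.30 when 1 of the 4 libraries was left out.

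Slirp, Polg, Polg2 and Mgme1 kept their direction under all settings run, although Mgme1 came to -0.013 in the 4-library comparison without mDrp1HET replicate 2. The 4-library log2 fold change of Tfb2m turned to -0.046 with median centring, -0.038 with quantile normalization and -0.27 with the GC trend removed, and as labelled to -0.031, -0.026 and -0.18. That of Ssbp1 turned to -0.14 with the GC trend removed (-0.095 as labelled), and that of Tfb1m to 0.0084 with voom. Leaving out 1 of the 4 libraries gave ranges of -0.42 to 0.36 for Tfb1m, -0.0097 to 0.25 for Tfb2m, -0.37 to 0.056 for Polrmt, -0.42 to 0.082 for Lrpprc, 0.060 to 0.55 for Ssbp1 and -0.38 to -0.013 for Mgme1. As labelled the first 4 ranges were -0.27 to 0.13, -0.037 to 0.19, -0.18 to 0.037 and -0.21 to 0.040, with -0.0027 to 0.41 for Tfam and -0.084 to 0.53 for Ssbp1. With 1 of the 4 libraries left out, the difference in the log2 ratio of Tfam to Polrmt lay between -0.0098 and 1.05. In the same way that of Tfb1m to Tfb2m lay between -0.41 and 0.11, and that of Lrpprc to Slirp between -1.42 and -0.89. That of Polg to Polg2 lay between -0.96 and -0.75, and with 1 CPM added it was -0.72. The causes of these turns were not tested.

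No paired analysis was possible because the labels give no replicate numbers that tie libraries across the groups. Polg2, with under 55 reads in each of the 4 libraries, has no value under the filter at a mean log2 CPM of 3. With 2 libraries per group, 95% intervals reached between 0.52 and 0.87 to either side of each member's log2 fold change, so smaller differences could not be told from 0. These intervals are not adjusted over genes, and the adjusted threshold asks for larger differences. Slirp, at 0.98, did not pass it.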
